A study of Mus musculus with 30 samples.

Results

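The 91 genes described here are the nuclear-encoded genes of oxidative phosphorylation that were measured in all 30 mouse liver libraries. They were chosen by name. A protein-coding gene outside the mitochondrial chromosome belonged to the group when its symbol began with Ndufa, Ndufb, Ndufc, Ndufs or Ndufv, with Sdha to Sdhd, with Uqcr, with Cox4 to Cox8, or with Atp5, and when it had at least 10 counts in every library. Of 55335 genes in the count tables, 98 protein-coding genes matched by name and 91 also met the count minimum. The other 7 were the tissue isoforms Cox4i2, Cox6a2, Cox6b2, Cox7b2, Cox8b and Cox8c and a second identifier of Atp5o, and 13 further matches, of which 12 were processed pseudogenes, were not protein-coding. The group held 44 genes of complex I, 8 of complex II, 8 of complex III, 14 of complex IV and 17 of complex V. No measured difference between groups entered the rule.

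Oxidative phosphorylation takes place in the inner mitochondrial membrane. Complex I accepts electrons from NADH and complex II from succinate, ubiquinone and cytochrome c carry them through complex III to complex IV, which reduces oxygen, and complexes I, III and IV pump protons. Complex V, the ATP synthase, lets the protons flow back and makes ATP. A small number of subunits is encoded by mitochondrial DNA, and all other subunits and the assembly factors are encoded in the nucleus, translated in the cytosol and imported. The liver is rich in mitochondria, since fatty acid oxidation and the synthesis of glucose and urea depend on them.

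Messenger RNA was sequenced from the livers of male mice on an albino C57BL/6J background, 7 to 10 weeks old, with 5 mice in each of 6 groups. The genotypes were wild-type, C151S (homozygous for a knock-in allele of Keap1 in which serine replaces the cysteine that the drug binds) and Nrf2-knockout (homozygous for a disrupted Nfe2l2, the gene of the transcription factor NRF2). KEAP1 holds NRF2 at a low level until an electrophile such as CDDO-Me, also called bardoxolone methyl, modifies its sensor cysteine. Each genotype received either vehicle (DMSO and Cremophor-EL in phosphate-buffered saline) or a single oral dose of 30 µmol/kg CDDO-Me, and the liver was taken 24 h later. Both mutant alleles are carried in every cell from the germ line. The wild-type mice were bought from a supplier while the mutants were bred as lines, so genotype and colony of origin cannot be told apart.

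Each library held 23667068 to 42073169 counts on genes (median 33229925). The tissue carried liver RNA: all 10 hepatocyte markers were detected in each group, while 1 of 6 muscle markers was, at a summed 0.49 to 1.33 CPM (a gene's count relative to the scaled total of its library, the unit used throughout). The NRF2 target list checked genotype and drug, with 9 of 10 targets higher after CDDO-Me in wild-type mice (median log2 fold change 1.496) and 0 of 10 called in either mutant. Nfe2l2 measured 66.1 ± 4.15 CPM in the wild-type and 35.2 ± 4.54 CPM in the knockout vehicle livers (SD, n = 5 each). 1 feature set libraries apart within groups. Arntl, which encodes the clock activator BMAL1, was at 2.53 to 4.803 log2 CPM in 19 libraries and at -1.18 to 0.90 in the other 11. The low set held 5 C151S livers (vehicle 4 and 5, CDDO-Me 3, 4 and 5) and 6 Nrf2-knockout livers (vehicle 1, 2 and 3, CDDO-Me 1, 3 and 4) and no wild-type liver. These sets were defined from a measured gene and not from the labels, and comparisons between groups are therefore given with and without them. The sets largely follow the order of the samples. The low set came last among the C151S samples. It came first among the Nrf2-knockout samples, except that CDDO-Me 2 was in the high set. The labels give no dates of isolation, so the sets cannot be told apart from a batch of isolation or processing. What separated the sets was not tested.

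The 91 genes together took 0.977% to 1.38% of the gene counts of a library (median 1.17%). Levels between genes are compared here as CPM per kilobase of annotated exon, averaged over the 30 libraries. The 5 highest levels were those of 2 ATP synthase and 3 complex IV genes. Atp5a1 and Atp5b, the alpha and beta subunits that form the catalytic head, were at 345 ± 29.8 and 302 ± 27.5 CPM per kb (SD, n = 30). Cox6b1, Cox6a1 and Cox8a, nuclear-encoded subunits around the catalytic core of cytochrome c oxidase, were at 290 ± 25.3, 251 ± 41.4 and 241 ± 44.8 CPM per kb. Uqcr11, a small subunit of complex III, came next at 208, ahead of Cox4i1 at 205 ± 22.3. The order is loose, because from Cox6b1 to Cox4i1 each mean differed from the next by less than the larger of the SDs. Ndufa4, whose name assigns it to complex I although its product is a complex IV subunit, was at 185 ± 22.7 CPM per kb.

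By complex, the median level was 131 CPM per kb for complex III, 108 for complex IV, 61.7 for complex V, 38.0 for complex I and 27.6 for complex II. The low median of complex II came from its assembly factors, since the 4 subunits had a median of 110 and the 4 assembly factors one of 3.39 CPM per kb. Sdhd and Sdha, the small membrane anchor and the flavoprotein of succinate dehydrogenase, were at 181 ± 21.1 and 131 ± 11.7 CPM per kb, and Sdhb, the iron-sulfur subunit, and Sdhc, the other anchor, were at 88.1 and 42.4. Complex I split in the same way: its 7 core subunits had a median of 45.1, its 29 accessory subunits 50.01 and its 8 assembly factors 5.88 CPM per kb. Among the core subunits, Ndufv1, which binds NADH, was at 57.3 and Ndufs1, which carries iron-sulfur clusters, at 18.2 CPM per kb. In complex III the range was narrow, from 51.7 for the core protein gene Uqcrc1 to 208 for Uqcr11, with the Rieske protein gene Uqcrfs1 at 129 and Uqcrb at 132.

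Low values per kilobase included 1.23 for Sdhaf3, an assembly factor of complex II, 1.47 for Ndufa4l2, a relative of Ndufa4, 1.53 for Ndufb2, 2.56 for Cox7a1, 2.92 for Atp5l, 2.96 for Atp5s and 4.12 for Ndufab1. Assembly factors of complexes I and II lay among them. The values of Ndufb2, Atp5l and Ndufab1 go with long annotated exons (5628, 6443 and 6883 bases, against a median of 1756 for the 91 genes), so the scale understates a gene whose annotation holds a long transcript that is little used. The isoforms were those known from liver. Cox6a1, Cox7a2 and Cox8a, the forms found in liver, were at 251, 160 and 241 CPM per kb, whereas Cox7a1, the heart and muscle form of Cox7a2, was at 2.56, and the muscle forms Cox6a2 and Cox8b had at most 64 and 2 counts in a library. The 3 Atp5g genes encode the same mature c-ring subunit of the ATP synthase, with Atp5g3 at 146 CPM per kb, Atp5g1 at 24.3 and Atp5g2 at 13.5.

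**Figure D1:**
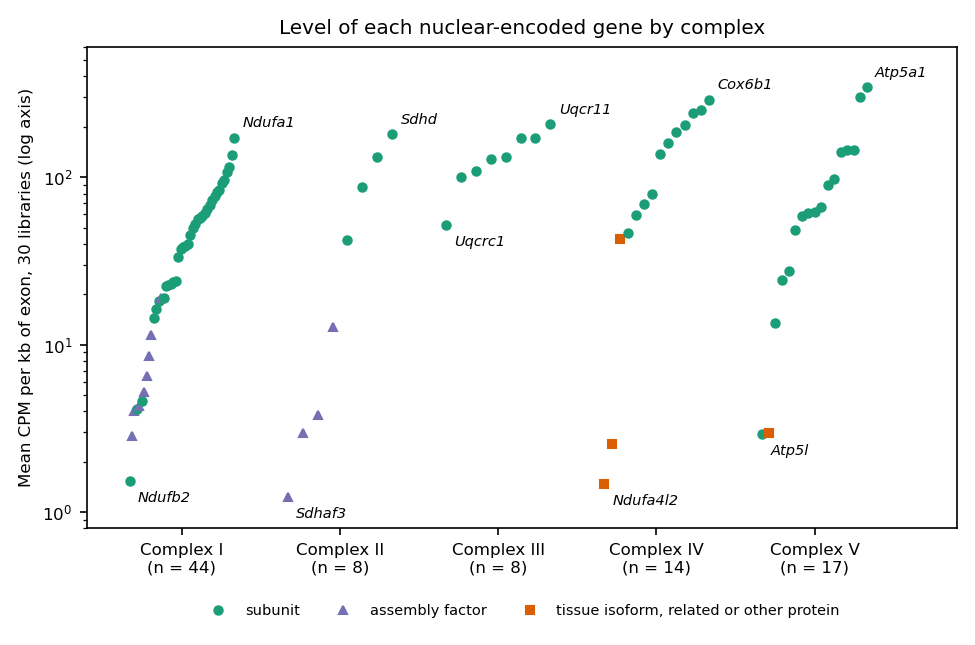
Each point is 1 gene, placed by complex on the horizontal axis and by its mean level over the 30 libraries on the vertical axis (CPM per kilobase of exon, log scale), with colour and shape marking the role of its product. Assembly factors lie below most subunits of the same complex, and Atp5a1 has the highest value at 345 CPM per kb.

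Promoter sequence was available for 77 of the 91 genes as a window of 300 bases, 250 before and 50 after the annotated start, taken from RefSeq on GRCm38.p6. The windows were searched on both strands for letters of 7 elements, none of which contains another, although matches may overlap at their ends. GCGCANGCG, a site of nuclear respiratory factor 1 (NRF1, a different protein from NRF2), was in 29.9% of the members' windows and in 8.58% of all 21263 windows of protein-coding genes. AANATGGCG, a site of YY1, was in 13% and 3.12%, TCAAGGTCA, a site of the estrogen-related receptors, in 2.6% and 0.334%, and CCGGAAGT, an ETS-family site bound by GABP, in 6.49% and 5.15%. TGACNNNGC, the core of the antioxidant response element to which NRF2 binds, was in 15.6% of members and 13% of all windows. CACGTG, the E-box to which BMAL1 and CLOCK bind, was in 7.79% and 7.84%, and TATAAA in 7.79% and 12.6%. At least 1 of the NRF1, ETS and YY1 letter strings was in 45.5% of members and 15.2% of all windows, and the members' windows also held more CpG (median observed over expected 0.833 against 0.567). These shares describe letters in a window and were not tested as sites.

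The 150 bases before the start are shown for 5 genes, 5′ to 3′ on the gene's strand, with any match in capitals. Sdhd and Ndufs6 carry NRF1 letters, the first in a subunit and the second in a gene that passed a test below. Atp5g3 carries estrogen-related receptor letters, and outside this stretch its window also holds NRF1 and E-box letters. Of the 2 members with estrogen-related receptor letters, the other is Sdhd, where they lie over or after the start. The correlation with the median of the other members, described below, was 0.94 for Atp5g3 and 0.71 for Sdhd. Cox7a1 and Atp5s, which gave the 2 lowest p-values across the 6 groups, hold none of the 7 letter strings in this stretch.
Sdhd (chr9:50603850-50603999, minus strand): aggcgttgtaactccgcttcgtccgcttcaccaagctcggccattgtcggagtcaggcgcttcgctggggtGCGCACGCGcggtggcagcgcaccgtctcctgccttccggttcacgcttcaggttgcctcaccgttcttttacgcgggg
Ndufs6 (chr13:73328483-73328632, minus strand): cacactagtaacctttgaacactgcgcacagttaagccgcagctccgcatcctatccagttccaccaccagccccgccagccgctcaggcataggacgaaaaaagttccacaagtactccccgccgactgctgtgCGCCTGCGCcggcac
Atp5g3 (chr2:73911327-73911476, minus strand): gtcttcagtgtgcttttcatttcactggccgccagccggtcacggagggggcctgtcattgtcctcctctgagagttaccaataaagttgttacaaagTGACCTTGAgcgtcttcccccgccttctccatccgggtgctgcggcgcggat
Cox7a1 (chr7:30184021-30184170, plus strand): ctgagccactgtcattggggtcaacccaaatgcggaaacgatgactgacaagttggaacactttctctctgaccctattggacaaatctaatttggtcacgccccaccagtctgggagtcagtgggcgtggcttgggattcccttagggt
Atp5s (chr12:69724795-69724944, plus strand): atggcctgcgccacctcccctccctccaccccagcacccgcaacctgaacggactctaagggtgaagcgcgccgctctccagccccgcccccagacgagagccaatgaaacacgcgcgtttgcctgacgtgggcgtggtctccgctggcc

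The first question was whether CDDO-Me changed these genes in wild-type liver, where it raised the NRF2 targets. None of the 91 genes was called higher or lower by edgeR's quasi-likelihood test at an adjusted p under 0.05, with 4 at an unadjusted p under 0.05 and 0 called by DESeq2. Over all 13697 genes tested, 2.65% were called higher and 1.58% lower by edgeR, and 17% were at an unadjusted p under 0.05. The members' median log2 fold change was -0.03, against -0.01 for all genes, and 97.8% of members had a 95% interval inside ±0.5 on the log2 scale, against 61.3% of all genes. The measurement was therefore precise enough to bound most members to a small change. Cytochrome c oxidase subunit Cox4i1 was at 283, 351, 294, 321 and 324 CPM in the vehicle livers and 302, 311, 299, 301 and 358 CPM in the CDDO-Me livers. The groups overlapped and the log2 difference was -0.01 (95% interval -0.18 to 0.16). Catalytic subunit Atp5b gave -0.11 (-0.26 to 0.04), Sdha -0.11 (-0.23 to 0.01), and Ndufs1 -0.07 (-0.18 to 0.04), all with intervals that include 0. The 4 genes at an unadjusted p under 0.05 were Ndufaf1 at -0.17, Cox7a1 at -0.63, Ndufab1 at -0.20 and Ndufaf4 at 0.20, with adjusted p between 0.22 and 0.27 by edgeR. Ndufaf1 and Ndufaf4, both assembly factors of complex I, are named here after their values were seen.

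CDDO-Me against vehicle also gave no call in C151S livers (0 of 91, with 4 at an unadjusted p under 0.05 by edgeR and 0 called by DESeq2) or in Nrf2-knockout livers (0 of 91, with 1 at an unadjusted p under 0.05 and 0 by DESeq2). In C151S livers 0.0142% of all genes were called higher and 0.0779% lower, and in Nrf2-knockout livers the shares were 0% and 0%. At an unadjusted p under 0.05 by edgeR were 13.7% of all genes in C151S and 7.85% in Nrf2-knockout livers. The members' medians were 0.08 in both, and 64 of 91 and 77 of 91 members lay above 0. Intervals were wider than in wild-type, with 86.8% and 80.2% of members bounded within ±0.5. The number of low-set livers differed between the arms of the C151S comparison, 2 of 5 with vehicle and 3 of 5 with CDDO-Me. Within the low set alone the C151S median was -0.005, within the high set alone 0.07, and in the Nrf2-knockout comparison these values were 0.09 and 0.08, with 0 members called each time.

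The responses to CDDO-Me were then compared between genotypes in 1 fit of 30 libraries. Of the 91 genes, 0 were called between wild-type and C151S, 0 between wild-type and Nrf2-knockout, and 0 between C151S and Nrf2-knockout by edgeR's test (1 member at an unadjusted p under 0.05 in each, 0 called by DESeq2). Over all 15010 genes the shares called were 0.48%, 0.266% and 0.0133%, and those at an unadjusted p under 0.05 by edgeR were 8.31%, 6.28% and 4.92%. The members' median differences in response were -0.125, -0.115 and -0.019 on the log2 scale, the first response minus the second.

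**Figure D2:**
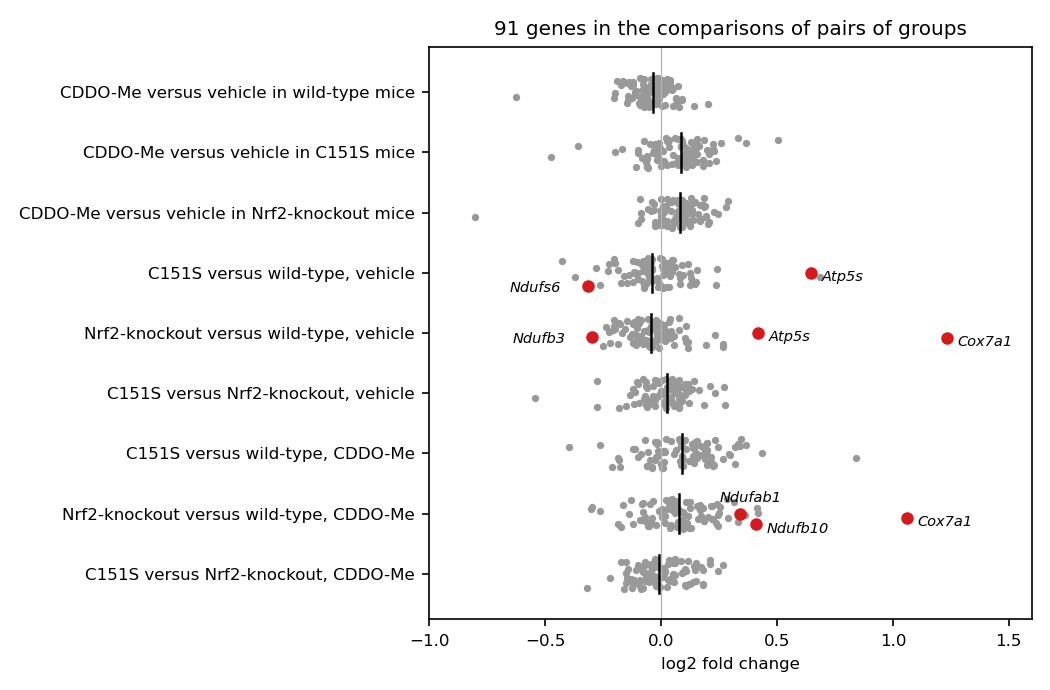
Each dot is 1 of the 91 genes, placed by its log2 fold change (horizontal axis) in each of the 9 pairwise comparisons (rows), with dots spread vertically only to separate them and with red dots past an adjusted p of 0.05 by edgeR and a black bar at the median. The medians lie between -0.04 and 0.09, and 8 dots in all are red.

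The genotypes were compared next in vehicle-treated livers. Against wild-type, 1 of 91 genes was called higher and 1 lower in C151S livers, where 3.57% of all genes were called higher and 4.75% lower. In Nrf2-knockout livers 2 members were called higher and 1 lower, where the shares over all genes were 8.37% and 8.07%. The members' shares are below these. The members' medians were -0.04 in both comparisons, with 53 and 61 of 91 genes below 0.

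Atp5s (ENSMUSG00000054894.6, chr12:69724950-69744660) had the lowest p-value. Its product was described as coupling factor B of the ATP synthase and is also called DMAC2-like. It was at 4.57, 4.98, 4.57, 4.87 and 4.87 CPM in the 5 wild-type vehicle livers. In C151S vehicle livers it was at 8.56, 6.80, 7.12, 6.47 and 8.02 CPM. All 5 C151S livers were above all 5 wild-type livers, and the log2 fold change was 0.65 (SE 0.10, adjusted p = 0.0051, edgeR's quasi-likelihood test). In Nrf2-knockout vehicle livers Atp5s was at 5.38, 7.20, 7.46, 6.31 and 5.05 CPM. These were again above every wild-type vehicle liver, and the fold change was 0.42 on the log2 scale (SE 0.13, adjusted p = 0.0494). After CDDO-Me the same contrasts gave 0.43 and 0.42, with adjusted p of 0.136 and 0.0762, neither called. The vehicle call in C151S held in each of 10 alternative analyses and in each of 10 analyses that left out 1 library, while the one in Nrf2-knockout held in 6 and 2 of these.

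Cox7a1 (ENSMUSG00000074218.3, chr7:30184144-30186078) encodes the subunit that replaces the Cox7a2 product in heart and muscle cytochrome c oxidase. It is scarce in liver, with 10 to 192 counts in a library. Wild-type vehicle livers were at 0.703, 1.54, 0.892, 1.19 and 0.777 CPM. Nrf2-knockout vehicle livers were at 1.66, 2.89, 4.17, 1.45 and 1.65 CPM. The groups overlapped at the highest wild-type liver and the lowest knockout liver, and the log2 fold change was 1.23 (SE 0.34, adjusted p = 0.0299). Leaving out 1 library ended this call in 6 of 10 cases. After CDDO-Me, wild-type livers were at 0.470, 0.595, 0.811, 0.616 and 0.830 CPM and Nrf2-knockout livers at 1.65, 1.26, 1.51, 1.11 and 1.33 CPM. Here every knockout liver was above every wild-type liver, and the log2 fold change was 1.06 (SE 0.22, adjusted p = 0.0089). This call held in all 10 analyses without 1 library, but not with the Arntl set as a covariate (adjusted p = 0.135) or in high-set livers alone (adjusted p = 0.080). C151S against wild-type gave 0.68 with vehicle and 0.84 with CDDO-Me (adjusted p of 0.151 and 0.201), so that neither was called. Of the markers of tissues rich in Cox7a1, the muscle list stayed at 1.33 CPM or less in sum. The fat list, of which 1 of 6 markers (Fabp4) could be tested, summed to 6.1 to 12.8 CPM in wild-type and 9.2 to 17.7 CPM in Nrf2-knockout livers. Fabp4 is a fatty acid binding protein also found in endothelial cells and macrophages. It was called higher in Nrf2-knockout livers after CDDO-Me (log2 fold change 0.78, adjusted p = 0.0298 by edgeR). With vehicle it was at 0.70 (adjusted p = 0.0539 by edgeR). Between the Arntl sets, low minus high and adjusted for group, Cox7a1 was at 0.51 and Fabp4 at -0.03 on the log2 scale. With vehicle, Nrf2-knockout against wild-type called 4 of 8 endothelial and 3 of 8 stellate cell markers higher. After CDDO-Me it called 1 of 8 higher in each list, and 0 lower both times. Of 10 macrophage markers 0 were called higher, and 1 lower after CDDO-Me. Over all genes 8.37% were called higher with vehicle and 5.78% after CDDO-Me. The part of these cells or of Fabp4-expressing cells in the Cox7a1 result was not tested.

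Ndufs6 and Ndufb3, accessory subunits of the iron-sulfur fraction and of the membrane arm of complex I, were called lower. Ndufs6 was at 90.8, 91.7, 71.9, 83.5 and 76.4 CPM in wild-type vehicle livers and at 63.4, 62.8, 59.0, 72.4 and 72.8 CPM in C151S vehicle livers. The 2 highest C151S livers were the low-set ones and reached the lowest wild-type liver, and the log2 fold change was -0.31 (SE 0.09, adjusted p = 0.0499). Ndufb3 measured 61.5, 52.3, 51.6, 48.4 and 48.9 CPM in the wild-type vehicle livers and 48.6, 39.7, 38.4, 39.2 and 45.5 CPM in those of Nrf2-knockout mice. 1 knockout liver lay within the wild-type range, and the log2 fold change was -0.30 (SE 0.09, adjusted p = 0.0450). In C151S the Ndufb3 value was larger, at -0.37, with an adjusted p of 0.0673. Leaving out 1 library ended the Ndufs6 call in 7 of 10 cases and the Ndufb3 call in 8 of 10.

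In CDDO-Me-treated livers, C151S against wild-type gave 0 calls among the 91 genes by edgeR's test (18 at an unadjusted p under 0.05, and 2 called by DESeq2). By edgeR, 2.99% of all genes were called higher and 3.79% lower, and 24.6% were at an unadjusted p under 0.05. Nrf2-knockout against wild-type gave 3 higher and 0 lower by edgeR (14 members at an unadjusted p under 0.05, and 7 called by DESeq2). The shares of all genes by edgeR were 5.78% and 6.79%, with 28.8% at an unadjusted p under 0.05. The shares of all genes called by DESeq2 are not given, so its counts are not read as particular to the members. The medians were 0.09 and 0.08, with 65 and 66 of 91 genes above 0. Next to Cox7a1, the calls were Ndufb10 and Ndufab1. Ndufb10, an accessory subunit of the complex I membrane arm, measured 95.5, 96.4, 91.4, 93.2 and 105 CPM in the wild-type livers and 152, 113, 129.6, 140.1 and 97.2 CPM in the knockout livers. The ranges overlapped only through knockout liver 5, which is of the high set, and the log2 fold change was 0.41 (SE 0.11, adjusted p = 0.0337). Ndufab1, the mitochondrial acyl carrier protein that is also a complex I subunit, measured 23.6, 22.7, 23.1, 28.1 and 24.4 CPM in the wild-type livers and 32.1, 29.3, 36.9, 28.6 and 25.6 CPM in the knockout livers. Only the highest wild-type liver passed into the knockout range, and the log2 fold change was 0.34 (SE 0.10, adjusted p = 0.0495). A processed pseudogene carries the Ndufab1 name, and since only uniquely placed reads were counted its level is uncertain. Leaving out 1 library ended the Ndufb10 call in 7 of 10 cases and the Ndufab1 call in 8 of 10.

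C151S and Nrf2-knockout livers were also compared with each other. None of the 91 genes was called with vehicle (1 at an unadjusted p under 0.05 by edgeR, 0 by DESeq2) or with CDDO-Me (0 and 0). Over all genes, 0.314% were called higher and 0.0419% lower with vehicle, and 0.127% and 0.0352% with CDDO-Me. At an unadjusted p under 0.05 by edgeR were 11.3% of all genes with vehicle and 7.82% with CDDO-Me. The members' medians were 0.02 and -0.01, and 90.1% and 84.6% of members had an interval within ±0.5.

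These genotype comparisons depended on the Arntl sets, which are unequal between mutants and wild-type. With the set as a covariate in 1 fit of 30 libraries, the Nrf2-knockout against wild-type comparison with vehicle called 1 member higher and 32 lower (median -0.21), where 25% of all genes were called in either direction. The same fit gave 1 higher and 6 lower for C151S with vehicle (background 7.63%), 0 and 7 for C151S with CDDO-Me (10.5%), and 1 and 11 for Nrf2-knockout with CDDO-Me (20.8%). In the high set alone, C151S against wild-type with vehicle called 1 member higher and 11 lower (background 25.8%). With the covariate the medians after CDDO-Me also turned sign, to -0.07 for C151S and -0.09 for Nrf2-knockout. All wild-type livers are in the high set, so these fits compare them in effect with the 9 high-set mutant livers, 2 or 3 in each group.

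**Figure D3:**
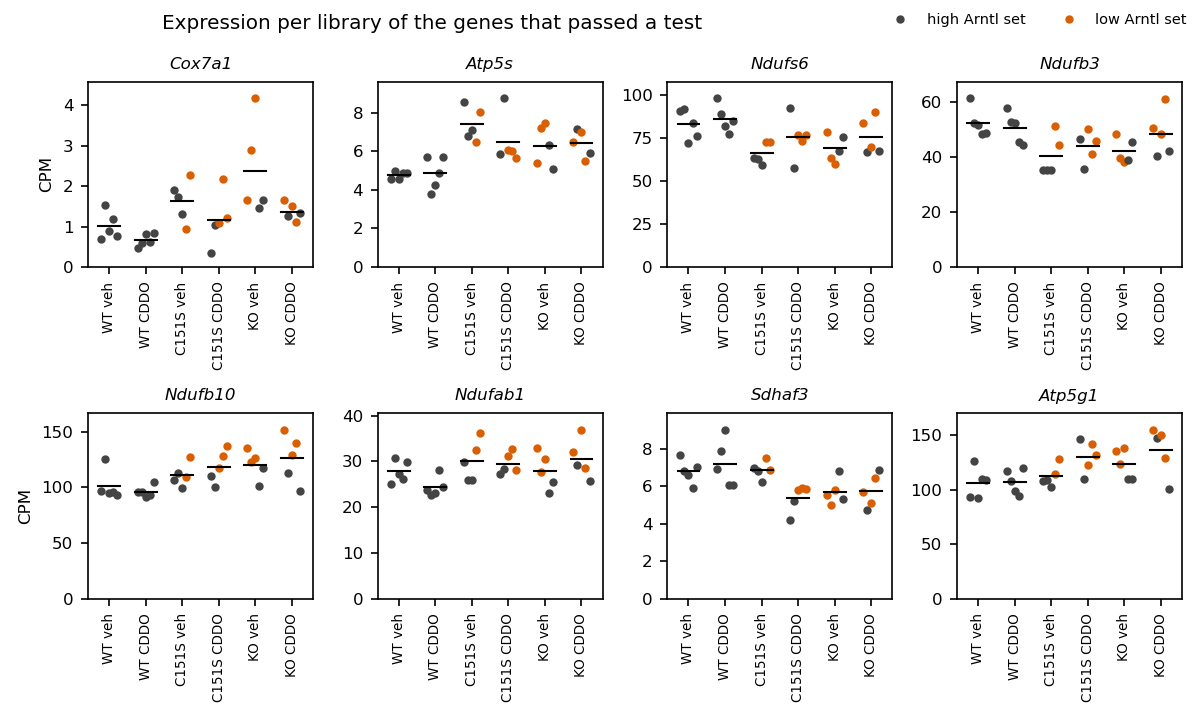
CPM of 8 genes (vertical axes, each from 0) in the 30 livers, by group on the horizontal axis, with 1 point per liver (orange for the low and dark for the high Arntl set) and a bar at the group mean. WT, KO, veh and CDDO stand for wild-type, Nrf2-knockout, vehicle and CDDO-Me. Atp5s is higher in each C151S vehicle liver than in any wild-type vehicle liver, and Cox7a1 after CDDO-Me is higher in each Nrf2-knockout liver than in any wild-type liver.

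Across all 6 groups, a test of any difference called 6 of the 91 genes, where 28.9% of all 15010 genes were called. They were Atp5s, Cox7a1, Sdhaf3, Ndufb10, Atp5g1 and Ndufs6, with adjusted p of 0.0032, 0.0035, 0.034, 0.037, 0.045 and 0.047 by edgeR. Sdhaf3, which helps to mature the iron-sulfur subunit of complex II, was at 6.79 ± 0.646 and 7.18 ± 1.26 CPM in wild-type vehicle and CDDO-Me livers (SD, n = 5 each). It was at 6.87 ± 0.460 and 5.38 ± 0.733 in the C151S groups and at 5.68 ± 0.691 and 5.76 ± 0.887 in the Nrf2-knockout groups, in the same order of treatments. The lowest mean was that of C151S livers after CDDO-Me, and no pairwise comparison called the gene. Atp5g1, 1 of the 3 c-ring genes, was at 106 ± 13.9 and 107 ± 10.9 CPM in wild-type, 113 ± 9.67 and 130 ± 15.0 in C151S, and 123 ± 13.9 and 136 ± 22.1 CPM in Nrf2-knockout livers. The 3 genes with the highest p were Atp5a1, Uqcrc1 and Cox7b, with adjusted p of 0.963, 0.992 and 0.997. Atp5s and Cox7a1 kept their call in all 30 analyses without 1 library, Ndufb10 in 27, Atp5g1 in 23, Sdhaf3 in 10 and Ndufs6 in 5.

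The 91 genes also moved together among livers of the same group. The first principal component of the within-group deviations held 56.8% of the members' variance, against 20.1% for all genes, and 89 of 91 members loaded on it with the same sign. The sets behind these shares differ in size and in count filter, and no matched set of genes was compared. Over the 30 libraries, 78 members correlated above 0.5 with the median of the others, a description in which all points share the scaling of their library. The highest values were 0.95 for Ndufs3, a complex I core subunit chosen after its values were seen, and 0.94 for Atp5g3. The lowest were -0.04 for Atp5s, -0.06 for Atp5l and -0.18 for Sdhaf3. Pseudogenes carry the Atp5l name, which leaves its level uncertain.

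The members also differed in common between the Arntl sets of the mutant livers. The component above was not compared with the sets. Wild-type livers, all of the high set, moved in common too. Wild-type vehicle 2 had 86 of 91 members above their mean over all livers, and wild-type vehicle 3 had 13. The difference between the sets is given as a description with no test, since the sets rest on measured values of these libraries. Adjusted for group, 89 of 91 genes were higher in low-set than in high-set livers, and 62 of them (68.1%) by more than 0.2 on the log2 scale, against 19.6% of all 15010 genes. The median difference was 0.25 (median SE 0.066), against -0.005 for all genes. It was 0.24 in complex I, 0.29 in complex II, 0.27 in complex III, 0.26 in complex IV and 0.21 in complex V, and within C151S and Nrf2-knockout libraries alone the medians were 0.21 and 0.24. Whether the difference between sets differed between genotypes was not tested.

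**Figure D4:**
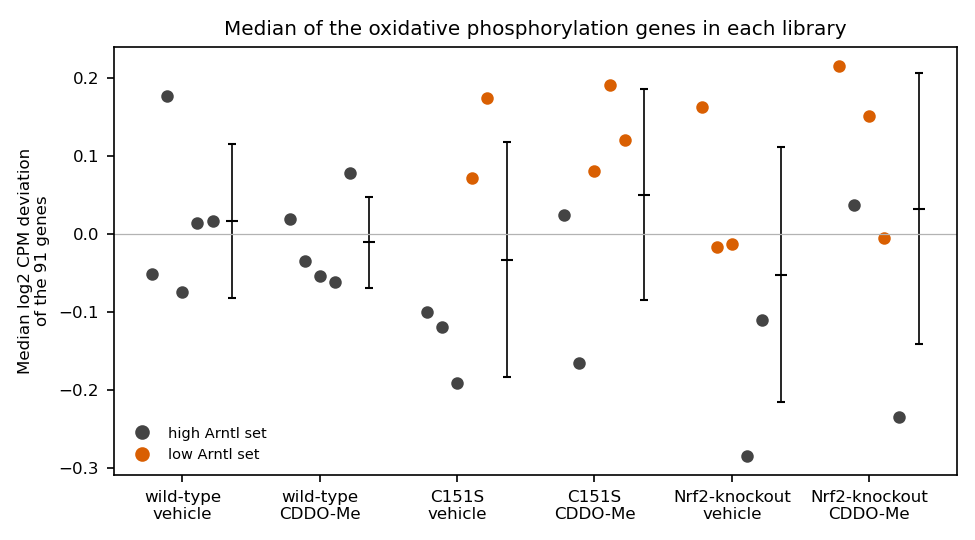
Each point is 1 liver, placed by group on the horizontal axis and by the median of the 91 genes' log2 CPM deviations from their means over all livers on the vertical axis, with orange for the low Arntl set, dark points for the high set, and bars for the group mean ± SD. Low-set C151S livers lie at 0.07 to 0.19 and high-set ones at -0.19 to 0.02, without overlap, while the Nrf2-knockout sets overlap.

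Among the subunits, Cox5a, a nuclear subunit of cytochrome c oxidase, had the highest value of complex IV at 0.52 (SE 0.10). It was at 141 to 156 CPM in the 5 low-set and 105 to 116 CPM in the 5 high-set C151S livers, which did not overlap. In Nrf2-knockout livers it was at 110 to 168 CPM in the low set and 72.0 to 136 CPM in the high set, which overlapped, and in wild-type livers it was at 97.9 to 145 CPM. The wild-type livers thus spanned the gap between the C151S sets. Uqcrc1, a core protein of complex III, showed the same order with a value of 0.36, at 229 to 251 CPM in low-set and 183 to 194 CPM in high-set C151S livers, and 195 to 236 CPM in wild-type. Sdhb was at 213 to 233 and 170 to 199 CPM in the C151S sets, and its value was 0.32. In Nrf2-knockout livers the sets overlapped for Uqcrc1 and for Sdhb. There Uqcrc1 was at 198 to 269 CPM in low-set and 147 to 216 CPM in high-set livers. Sdhb was at 173 to 231 and 140 to 207 CPM. The other subunits of complex II were at 0.29 for Sdhc, 0.28 for Sdhd and 0.16 for Sdha. Further values were 0.40 for Cox8a, 0.38 for Cox6a1, 0.32 for Uqcrfs1, 0.25 for Ndufs1, 0.24 for Atp5a1 and 0.21 for Atp5b. Atp5a1 and Uqcrc1, which had some of the highest p-values across groups, were thus among those that moved within groups.

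Ndufaf4 and Ndufaf6, assembly factors of complex I chosen after their values were seen, had the largest and the second largest differences. Ndufaf4 (0.75, SE 0.11) was at 22.7 to 47.7 CPM in the 11 low-set livers, 15.7 to 21.4 CPM in the 9 high-set mutant livers and 21.1 to 29.8 CPM in wild-type livers. The mutant sets did not overlap, and the wild-type range overlapped both. Ndufaf6 gave 0.53 (SE 0.06). At the other end were Atp5s at -0.05, Atp5l at -0.005, Ndufa4l2 at 0.03 and Sdhaf3 at 0.06, so that Atp5s, the member with the lowest p across groups, was among the 4 that moved least with the sets.

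**Figure D5:**
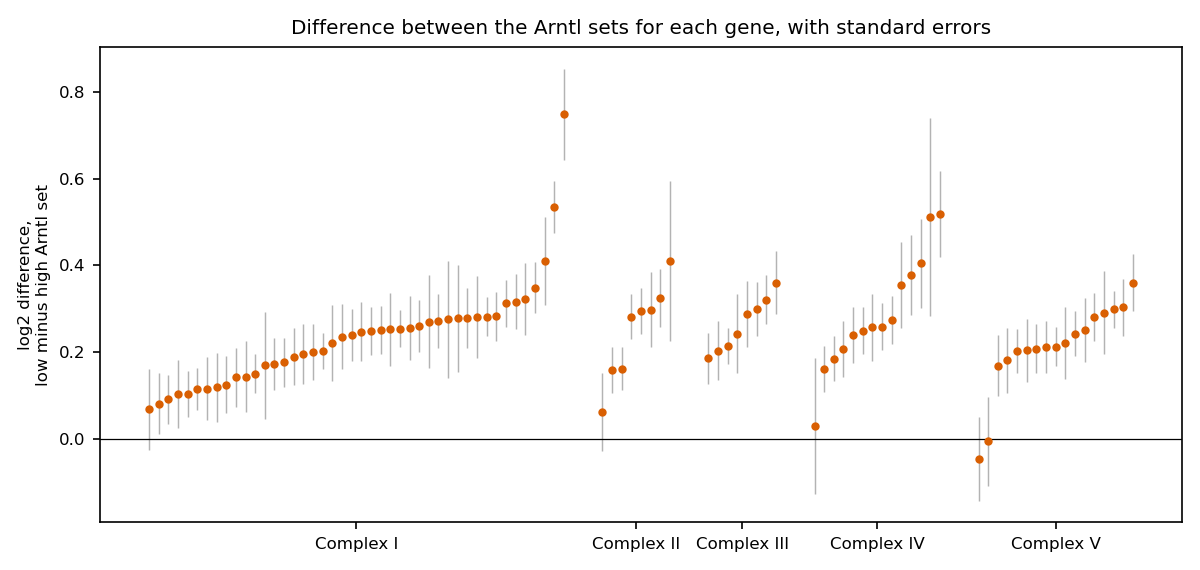
Each point is 1 of the 91 genes, ordered within its complex, with its log2 difference between low-set and high-set livers and a bar of ± 1 SE. All but 2 points are above 0, and the median is 0.25.

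Genes of the wider pathway were listed for comparison. Of the 13 subunits encoded by mitochondrial DNA, 7 could be tested, and 0 of the 7 were called in any pairwise comparison by edgeR. All 7 were lower in Nrf2-knockout than wild-type livers with vehicle (median -0.28) and CDDO-Me (-0.26). All 7 were also lower in C151S than wild-type livers with CDDO-Me (-0.34), and in C151S livers after CDDO-Me (-0.32). With vehicle, 4 of the 7 were higher in C151S than wild-type livers (0.02), and 7 of 7 higher than in Nrf2-knockout livers (0.26). Between the sets, 3 of the 7 were higher in low-set livers, with a median of -0.03, and mt-Nd5 was at -0.32. In the any-difference test 1 of the 7, mt-Nd4, was called (adjusted p = 0.024). Both are named after their values were seen. Among genes outside the name rule, 75 of 77 mitochondrial ribosomal protein genes were higher in the low set (median 0.19), as were 26 of 30 assembly factors of complexes III to V (0.16), 8 of 8 further assembly factors of complex I (0.15), 19 of 21 other subunits and electron carriers (0.17) and 16 of 19 tricarboxylic acid cycle genes (0.16). Cytosolic ribosomal protein genes gave 68 of 89 with a median of 0.08. In wild-type livers CDDO-Me called 3 of 19 tricarboxylic acid cycle genes and 1 of 77 mitochondrial ribosomal protein genes higher, and none lower, beside the 0 of 91 members. With vehicle, Nrf2-knockout against wild-type called 3 of 19 tricarboxylic acid cycle genes and 1 of 77 mitochondrial ribosomal protein genes lower, and 0 higher of either list. After CDDO-Me the same contrast gave 1 higher and 2 lower of the former, and 4 higher and 1 lower of the latter. C151S against wild-type called 0 and 2 lower with vehicle, again with 0 higher, and after CDDO-Me 1 higher and 1 lower of the former and 0 of the latter. The shares of all genes called in each of these contrasts were given above beside the members' counts. The test across 6 groups called 7 of the 19 cycle genes, 9 of the 77 ribosomal protein genes, 6 of the 21 carriers, 4 of the 30 and 1 of the 8 assembly factors and 7 of 23 transcription factors and coactivators, beside the 6 of 91 members and the 28.9% of all genes.

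Of 23 transcription factors and coactivators of these genes, 13 were higher in the low set (median 0.10). The highest value was that of Esrra, the estrogen-related receptor alpha, at 0.69 (SE 0.11). Myc followed at 0.56 (SE 0.36), and then Ppargc1b, a coactivator of the Esrra pathway, at 0.48 (SE 0.20). Esrra, Myc and Ppargc1b were chosen after their values were seen. Ppargc1a was at -0.06, Nrf1 at 0.13, Tfam at 0.11, Gabpa at -0.10 and Gabpb1 at -0.30. With vehicle, Nrf2-knockout against wild-type called 2 of the 23 higher and 2 lower (median -0.05). Over all genes 8.37% were called higher and 8.07% lower, so these counts are near the background. Ppargc1b rose by 0.83 and Tefm, a mitochondrial transcription elongation factor, by 0.29 on the log2 scale (adjusted p = 0.033 and 0.043 by edgeR). Esrrg, the estrogen-related receptor gamma, fell by 1.77 and Nrip1, a corepressor, by 0.72 (adjusted p = 0.033 and 0.0069). The other contrasts with wild-type called 0 higher and 1 lower for C151S with vehicle, 1 and 2 for C151S with CDDO-Me, and 0 and 1 for Nrf2-knockout with CDDO-Me. In the same order, the shares of all genes called higher and lower were 3.57% and 4.75%, 2.99% and 3.79%, and 5.78% and 6.79%. Ppargc1b, Tefm, Esrrg and Nrip1, too, were picked with their values known.

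Markers of other cells differed between the sets in both directions. Of the markers tested, 0 of 8 stellate cell, 0 of 8 endothelial, 0 of 8 lymphocyte and 1 of 10 macrophage markers were higher in the low set, with medians of -0.46, -0.31, -0.34 and -0.24, while 9 of 10 hepatocyte markers were higher (median 0.25), as were 5 of 5 erythroid markers (0.70) and 4 of 6 cholangiocyte markers (0.11). The erythroid markers summed to 121 to 409 CPM in low-set, 102 to 277 CPM in high-set mutant and 182 to 378 CPM in wild-type livers. The stellate cell markers summed to 231 to 410 CPM in low-set, 269 to 692 CPM in high-set mutant and 258 to 384 CPM in wild-type livers. In whole liver RNA, fewer cells of a type and less RNA per cell cannot be told apart. With the summed stellate cell, endothelial and macrophage markers as a covariate, the members' median difference between the sets was 0.16, and 84 of 91 were above 0. This sum holds no hepatocyte or erythroid marker, so the fit cannot decide the part of cell composition in the result, which was not tested.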

How the data were processed

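RNA-seq libraries of 30 mouse livers, 5 per group, were analysed from the whole-number read counts per gene that the authors deposited. Per the labels and the study's methods, stranded poly(A) libraries were sequenced as paired ends, read quality was assessed with fastp without removing reads or bases, reads were aligned to mm10 with STAR 2.7.7, and uniquely placed reads were counted per gene on the transcript's strand. Only such reads were counted, which lowers genes that have near-identical pseudogenes. The 4 STAR summary lines of each table were left out. The study named GENCODE M23, while symbols, positions and lengths here came from GENCODE M21 by gene identifier.

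Counts were scaled by TMM and tested with edgeR 4.0.16 in R 4.3.3 (filterByExpr, quasi-likelihood F-test) on the 10 libraries of each pairwise comparison. Responses between genotypes and differences among all 6 groups came from 1 fit of 30 libraries. Calls needed an adjusted p under 0.05 (Benjamini-Hochberg, over all genes tested). CPM were counts relative to the TMM-scaled library size. The scripts were tested on simulated data. Alternatives were DESeq2 1.42.0, upper-quartile factors, other filters, a replicate block, a surrogate variable (sva 3.50.0), a length offset, 1 common fit, the Arntl set, an added log2 threshold of 0.5, and leaving out each library. The study's fit also held the date of isolation, which was not used here. The number of counts behind each value limits precision, and p-values judge differences between group means against the spread between these mice.

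The members and gene lists were chosen with earlier results of these data known. Genes were named by rule: the 3 lowest p-values per comparison and direction among calls, the 5 lowest and 3 highest in the test across groups, the highest and lowest level of each complex, and a list of core subunits and isoforms. Other genes are named as examples of lists or after their values were seen.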

Additional observations from a re-analysis of the deposited data

Results flagged for a closer look

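A total of 246 sets of 5 livers were examined. In each group they covered the genes named by rule, the members' median deviation and summed CPM, and the summed CPM of mitochondrially encoded genes. Of these sets, 10 (4.07%) held a liver whose gap to its nearest neighbour exceeded 0.71 of the group's range, Dixon's 95% critical value. Chance gives about 1 in 20. Among wild-type vehicle livers, replicate 2 stood high for 3 genes, at 178 CPM for Cox7a2 (the others 135 to 142), 106 CPM for Cox7c (84.0 to 90.5) and 126 CPM for Ndufb10 (93.1 to 96.5). Among wild-type CDDO-Me livers, replicate 5 stood high for 3 genes, at 122.5 CPM for Atp5e (97.7 to 102), 358 CPM for Cox4i1 (299 to 311) and 209.6 CPM for Sdhb (179 to 183). Replicate 4 of the same group was low for Cox6b1, at 179 CPM (207 to 217). In C151S livers, Cox7a2 was at 183 CPM in vehicle replicate 5 (134 to 148) and Atp5s at 8.74 CPM in CDDO-Me replicate 2 (5.66 to 6.06). In Nrf2-knockout livers, Cox7a2l was at 34.2 CPM in vehicle replicate 4 (59.6 to 66.2).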

How the results depend on the processing

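The counts of members called were 0 under each alternative and each left-out library for the 3 drug comparisons, the 2 comparisons of C151S with Nrf2-knockout and the 3 differences in response. C151S against wild-type with vehicle (2 called) gave 4 with DESeq2, 1 with upper-quartile factors, no filter, a minimum of 10 counts, the replicate block, a surrogate variable, 1 fit of 30 libraries or an added threshold of 0.5, 7 with the Arntl set as a covariate and 12 in the high set alone. Nrf2-knockout against wild-type with vehicle (3) gave 1 with no filter, the replicate block or the added threshold, 0 with a surrogate variable, 6 with a length offset and 33 with the Arntl covariate, where the median was -0.214. With CDDO-Me, C151S against wild-type (0) gave 2 with DESeq2, 1 with upper-quartile factors, a length offset or 1 fit, and 7 with the Arntl covariate (median -0.0675). Nrf2-knockout against wild-type (3) gave 7 with DESeq2 or 1 fit, 5 with upper-quartile factors, 1 with no filter, the replicate block or the added threshold, 12 with a length offset, 12 with the Arntl covariate (median -0.0860) and 0 in the high set alone (median -0.0794). The any-difference test (6) gave 2 with no filter, 0 with a surrogate variable and 21 with the Arntl covariate. The share of all genes called is not given beside most of these counts, so a change in a count is not read as particular to the members. Causes were not tested.

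Leaving out 1 library gave 1 to 3 calls for C151S and 0 to 4 for Nrf2-knockout against wild-type with vehicle. With CDDO-Me it gave 0 to 5 for C151S (5 without C151S CDDO-Me replicate 2, 3 without replicate 1) and 1 to 8 for Nrf2-knockout (8 without Nrf2-knockout CDDO-Me replicate 5), and 2 to 8 across groups. The median difference between the Arntl sets was 0.156 to 0.273 over alternatives and 0.205 to 0.266 without 1 library. The mean correlation between the deviations of same-numbered mice was -0.189 to 0.177 over the pairwise comparisons. Replicate numbers were therefore not taken as pairs outside the replicate block, although pairing is not excluded. Of the results on single genes, 235 kept their side of the threshold, 153 lost it and 0 reversed. Genes with few counts, such as Cox7a1, are limited by depth.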
